A study of Mus musculus with 6 samples.

Results

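Hox genes are the homeobox genes that give cells their position along the body axis, and in the mouse they lie in 4 clusters (A, B, C and D) in which the paralogue number follows the position of the gene. Their levels were read on 6 Affymetrix Mouse 430 2.0 arrays, 1 for each of 3 auditory brainstem nuclei at 2 postnatal ages. Sampled were VCN, the ventral cochlear nucleus, LSO, the lateral superior olive, and MNTB, the medial trapezoid body nucleus. They were dissected from fresh brainstem slices of male C57BL/6J mice, for which the labels name no allele or treatment, with 6 mice pooled at postnatal day 3 (P3) and 3 at postnatal day 14 (P14). Members were all genes with a symbol of the form Hoxa, Hoxb, Hoxc or Hoxd plus a number, each read from the probe set of highest mean among those naming that gene alone. Of 39 such symbols listed by RefSeq, 33 were represented, out of 18193 genes in all. The other 6 are not analysed here.

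In the embryo Hox genes of low paralogue number are switched on in the hindbrain, where each rhombomere, a segment of the hindbrain wall, has its own combination, and genes of high number are used in the spinal cord and trunk. The cochlear nucleus gathers cells from several neighbouring rhombomeres, whereas the superior olivary complex, which holds LSO and MNTB, comes largely from the fifth. Hox proteins bind DNA together with TALE homeodomain partners of the Pbx, Meis and Pknox families, retinoic acid and the factor Egr2 act on the clusters early, and Polycomb and Trithorax complexes hold them off or on. In the auditory brainstem Hoxa2 and Hoxb2 are known to act in the cochlear nucleus on the order of its connections.

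All values are log2 units of RMA, a robust multi-array average, and a difference of 1 unit is a doubling. Each combination of nucleus and age is 1 array, so no value has a replicate of its own, and the 6 arrays had medians of 6.27 to 6.31. Different genes are read by different probes, so differences are taken between arrays for 1 gene. Sums over gene lists, and the single background level applied to every gene, leave these probe differences uncorrected. The reference for background was the highest value of 3 unspiked bacterial control sets on any array, 4.42, whose lowest value was 2.84. The dissection was checked on markers of VCN and MNTB, and the lists held none for LSO. Atoh7, a gene of the bushy cell lineage of VCN, was at 9.46 and 11.07 in VCN and at 5.92 to 7.93 in the other nuclei. Slc6a5, the neuronal glycine transporter, which the glycinergic principal cells of MNTB use, was at 12.50 and 13.02 in MNTB and at 10.74 to 12.22 elsewhere. The summed level of 3 MNTB markers, En1, Calb1 and Kcnc1, separated the nuclei less well at P3. It was 10.39 in MNTB, 10.06 in LSO and 9.88 in VCN at P3, and 12.23, 10.72 and 11.51 at P14. The summed level of 5 cerebellar granule cell markers, 13.11 and 12.47 in the VCN arrays of P3 and P14, was 7.67 to 9.59 in the others. Its members did not move together: in VCN Zic1 (12.45 and 11.84), Zic2 (11.14 and 9.83) and Neurod1 (9.90 and 8.97) were lower at P14, while Gabra6 (3.61 and 7.97) and Cbln3 (5.27 and 8.54) were higher. The summed level of 6 choroid plexus markers was 12.63 in VCN at P14 against 7.91 to 8.12 on the other 5 arrays, and was nearly all Ttr (12.58), the other 5 lying at 4.78 to 6.26. In bulk tissue fewer cells of a type and less RNA per cell cannot be told apart.

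Of the 33 Hox genes 14 lay above 4.42 on all 6 arrays, 7 on some and 12 on none. Over all 18193 genes 80.4% lay above it on all arrays and 13.2% on none. The Hox genes above it on each single array numbered 16 to 18. Among the 13 genes of paralogue groups 1 to 5, 7 were above it on all arrays, 4 on some and 2, Hoxb1 and Hoxa4, on none. Among the 20 genes of groups 6 to 13, 7 were above it on all arrays, 3 on some and 10 on none. By cluster 5 of 9 represented genes were above it on all arrays in A, 5 of 9 in B, 3 of 7 in C and 1 of 8 in D. This split of the paralogue groups was chosen with the values known.

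**Figure D1:**
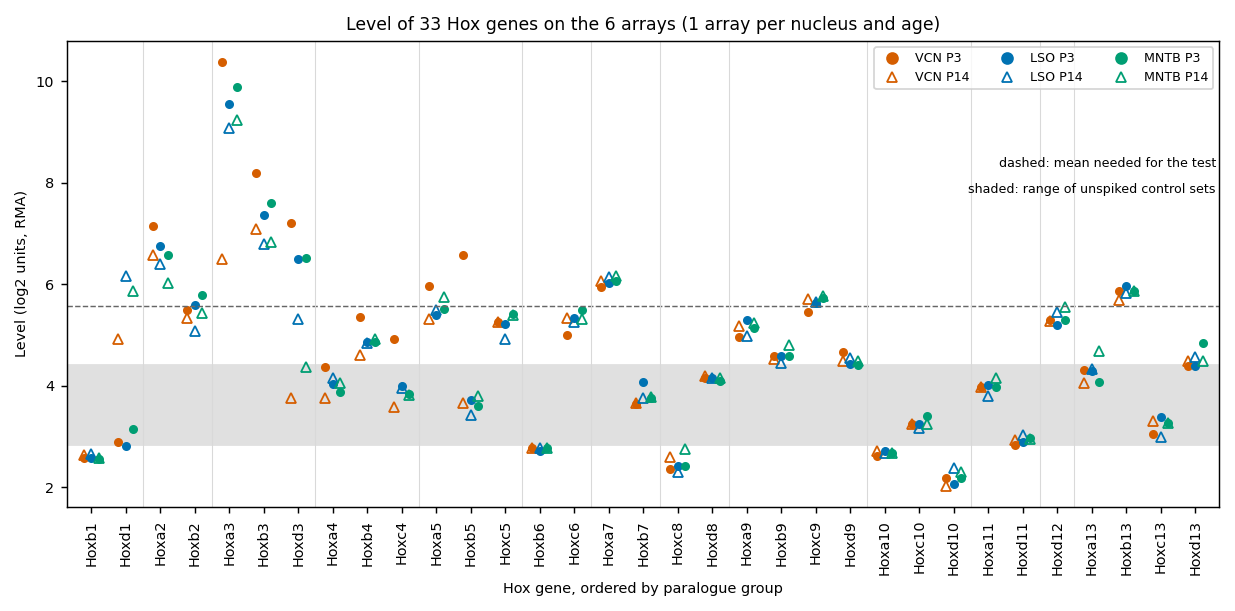
Level (log2 units) of each of the 33 Hox genes on each array, ordered by paralogue group; circles are P3, triangles P14, and colours the 3 nuclei. The shaded band is the range of the unspiked control sets (2.84 to 4.42), the dashed line the mean of 5.57 needed for the test; the arrays spread apart for Hoxd1, Hoxa3, Hoxd3 and Hoxb5 and lie close together from group 6 on.

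The genes of groups 6 to 13 were nearly flat. Their span, the highest minus the lowest of the 6 arrays, ran from 0.06 to 0.64 with a median of 0.35, against 0.56 over all genes. None of the 20 spanned 1 unit or more, which 22.7% of all genes did. Hoxa7, a gene of trunk segments, was above control on every array at 5.96 to 6.17, and Hoxb13, a gene of the tail end, at 5.69 to 5.96. Hoxc9, which sets motor column identity in the thoracic cord, was at 5.44 to 5.77 and Hoxd12 at 5.19 to 5.54. Whether a flat level above control is signal of the gene was not tested. Hoxb6, Hoxb7, Hoxc8, Hoxd8, Hoxa10, Hoxc10, Hoxd10, Hoxa11, Hoxd11 and Hoxc13 were at or below control on all arrays.

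The Hox genes that varied by 1 unit or more were all in groups 1 to 5. The median span of these groups was 1.11, and 7 of their 13 genes spanned at least 1 unit: Hoxd1, Hoxa2, Hoxa3, Hoxb3, Hoxd3, Hoxc4 and Hoxb5. The VCN arrays held many of these extremes. Without both VCN arrays the median span was 0.49 in groups 1 to 5 and 0.28 in groups 6 to 13, against 0.44 over all genes, and only Hoxd1 and Hoxd3 spanned 1 unit, as did 15.6% of all genes.

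In group 1, Hoxb1, the gene that gives the fourth rhombomere its identity, was listed at 2.55 to 2.66, below the control range on all arrays. Hoxd1, which is better known from sensory neurons than from the hindbrain, was the only Hox gene with all P14 arrays above all P3 arrays. At P3 it was at 2.89 in VCN, 2.82 in LSO and 3.16 in MNTB, and at 4.92, 6.17 and 5.86 in the same order at P14. All 3 P3 arrays were within or just under the control range and all 3 P14 arrays were above it, with LSO and MNTB the higher. Against a floor of 4.47, the 25th percentile of all values, the P14 level was at least 1.18 units higher on average.

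In group 2, Hoxa2, the Hox gene with the most anterior limit in the hindbrain, had P3 values of 7.14 in VCN, 6.76 in LSO and 6.57 in MNTB, and was at 6.57, 6.40 and 6.04 at P14. VCN was the highest and MNTB the lowest at each age, and the ages overlapped because VCN at P14 was level with MNTB at P3. Its paralogue Hoxb2, a direct target of Egr2 in the embryo, was at 5.50, 5.60 and 5.80 at P3 and at 5.34, 5.09 and 5.43 at P14. The ages did not overlap for Hoxb2, though by a narrow margin, and its mean was too low for the test.

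Group 3 genes, which help to pattern the fifth and the sixth rhombomere, spanned 1.39 to 3.88 units. Hoxa3 had P3 values of 10.38 in VCN, 9.55 in LSO and 9.89 in MNTB, and was at 6.50, 9.08 and 9.24 at P14. VCN thus went from the highest array to by far the lowest, while LSO and MNTB kept values of 9.08 to 9.89. Hoxb3 was at 8.19, 7.37 and 7.60 at P3 and at 7.09, 6.80 and 6.83 at P14, so every P3 array was above every P14 array. Hoxd3 was at 7.20, 6.50 and 6.52 at P3 and at 3.76, 5.31 and 4.38 at P14. Its VCN and MNTB arrays of P14 were within the control range and that of LSO above it, with no overlap between ages.

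In groups 4 and 5 the VCN array of P3 stood out. Hoxb5, a gene of the caudal medulla and of neural crest, was at 6.58 in VCN at P3 and at 3.42 to 3.81 on the other 5 arrays, all within the control range. Hoxc4 was at 4.91 in VCN at P3 and at 3.57 to 4.0 elsewhere, again within that range. These 2 genes were above control on that array alone, as were 0.214% of all genes. Hoxb4 was at 5.36 in VCN at P3 and 4.6 to 4.92 elsewhere, and Hoxa5, which is used in the medulla and its breathing circuits, at 5.97 against 5.31 to 5.74. Hoxa4 had the same order below the control level, and Hoxc5 showed no such order, at 4.93 to 5.42. Hoxa5 was read from 1443803_x_at, an _x_at probe set, a class that an alternative left out where another existed. With it left out Hoxa5 was under the filter and untested. The second probe set of Hoxa5, 1448926_at, was at 2.60 to 3.07, at or below control on all arrays. In it MNTB at P14 (3.07) was level with VCN at P3 (3.07).

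The 250 bases before the start of 4 of these genes are printed because 3 of them had lower values at P14 and 1 had higher ones. They are from RefSeq on GRCm38.p6, where 19 of the 33 genes had an entry, and are written in the direction of the gene in lower case. Capitals mark every match, on either strand, to 4 motifs: the joint Hox and Pbx site TGATNNAT, the Meis and Pknox site TGACAG, the nuclear receptor half-site AGGTCA and the CCAAT box. Hoxa2 lies on the minus strand at chr6:52164832-52165081, Hoxa3 on the minus strand at chr6:52213068-52213317, Hoxd3 on the plus strand at chr2:74711743-74711992 and Hoxd1 on the plus strand at chr2:74762730-74762979.
Hoxa2: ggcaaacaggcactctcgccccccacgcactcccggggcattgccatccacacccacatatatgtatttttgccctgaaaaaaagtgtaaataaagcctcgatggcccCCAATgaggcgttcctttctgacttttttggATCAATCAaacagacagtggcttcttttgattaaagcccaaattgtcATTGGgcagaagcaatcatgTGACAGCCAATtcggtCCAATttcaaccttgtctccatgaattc
Hoxa3: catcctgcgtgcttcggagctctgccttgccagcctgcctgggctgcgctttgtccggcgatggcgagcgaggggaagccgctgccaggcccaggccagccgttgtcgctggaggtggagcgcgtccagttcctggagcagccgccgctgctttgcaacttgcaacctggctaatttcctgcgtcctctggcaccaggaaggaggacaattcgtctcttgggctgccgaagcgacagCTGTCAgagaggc
Hoxd3: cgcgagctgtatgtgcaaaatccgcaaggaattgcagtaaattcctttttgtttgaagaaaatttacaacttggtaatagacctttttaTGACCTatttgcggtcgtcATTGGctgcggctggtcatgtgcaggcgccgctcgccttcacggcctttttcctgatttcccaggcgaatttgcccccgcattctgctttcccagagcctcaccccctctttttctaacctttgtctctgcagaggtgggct
Hoxd1: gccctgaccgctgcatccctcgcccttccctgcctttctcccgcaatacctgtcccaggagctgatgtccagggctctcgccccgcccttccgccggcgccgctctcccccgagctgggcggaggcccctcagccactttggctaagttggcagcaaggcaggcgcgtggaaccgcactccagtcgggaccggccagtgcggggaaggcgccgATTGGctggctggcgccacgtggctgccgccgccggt
In Hoxa2 the bipartite site matched 111 to 104 bases before the start, the Meis and Pknox site 44 to 39 bases before it, next to a CCAAT box, and 4 CCAAT boxes matched in all. In Hoxa3 the Meis and Pknox site matched 13 to 8 bases before the start. In Hoxd3 the half-site matched 161 to 156 and a CCAAT box 142 to 138 bases before the start, and in Hoxd1 a CCAAT box 37 to 33 bases before it. Such short words are common. Of 32851 promoters of this length TGATNNAT matched 7.68%, TGACAG 15.9%, AGGTCA 14% and CCAAT 33.8%, and of the 19 Hox genes they matched 3, 2, 5 and 11. The windows held 6 CpG in Hoxa2, 18 in Hoxa3, 12 in Hoxd3 and 24 in Hoxd1, where the median of all promoters was 6. A match is a string of letters and shows no binding, and the arrays do not read where transcription started.

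The first comparison, P14 against P3, spans the onset of hearing. Hoxb3, Hoxa2 and Hoxd3 fell, with lower P14 values in each of the 3 nuclei. Values were fitted with limma over all 6 arrays with age and nucleus as terms, so the error reflects unequal age differences among the nuclei, and p-values speak of repetition over nuclei rather than over mice. Pool size went with age and cannot be told apart from it. The labels do not state whether a shared pool of mice supplied all 3 nuclei at each age. With a shared pool, the 3 age differences would not be independent, and a difference between pools could not be told apart from age. Only genes with a mean of at least 5.57, the 40th percentile of all probe sets, were tested. That left 13015 genes, 8 of the 33 Hox genes among them: Hoxa2, Hoxa3, Hoxb3, Hoxd3, Hoxa5, Hoxa7, Hoxc9 and Hoxb13. Hoxd3, with a mean of 5.61, was tested only through its P3 arrays, since its P14 values all lay under the filter. Having a mean past the filter with such P14 values, it had to differ, so the count of calls is a description only. Of the 8 genes 3, Hoxd3 included, fell and 0 rose at an adjusted p under 0.05. Among all tested genes 41.1% were called, 23.4% higher and 17.7% lower, so that a call was common.

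Hoxd3 fell by 2.26 ± 0.40 (standard error, 3 nuclei, limma adjusted p = 0.00685, and 0.0118 with no filter). The single differences were -3.44 in VCN, -1.19 in LSO and -2.14 in MNTB, and with values raised to the floor of 4.47 they were -2.73, -1.19 and -2.05. LSO thus kept more of the Hoxd3 signal than the other nuclei, a difference that was not tested. Hoxb3 fell by 0.81 ± 0.14 (adjusted p = 0.0072), with -1.10 in VCN, -0.57 in LSO and -0.77 in MNTB. Hoxa2 fell by 0.49 ± 0.12 (adjusted p = 0.0234), with -0.57, -0.36 and -0.53. The Hoxa2 call did not hold with any of the 6 arrays left out (adjusted p = 0.0631 to 0.112) or with age as the only term (adjusted p = 0.0939). The Hoxb3 and Hoxd3 calls held in all alternatives that tested them. For Hoxd3 this adds little, because each fit but that with no filter used a filter passed only through its P3 arrays.

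Hoxa3 was the tested gene with the most uneven course. Its average difference of -1.67 ± 0.65 did not pass (limma adjusted p = 0.0866). VCN was 14.7-fold lower at P14, LSO 1.39-fold and MNTB 1.57-fold, and this unevenness between nuclei is what the error of the fit holds. Leaving out either VCN array gave -0.56, with an adjusted p of 0.0166 without the P3 array and 0.0112 without that of P14. The other 4 tested genes did not pass: Hoxa5 differed by -0.11 ± 0.20 (adjusted p = 0.678), Hoxa7 by 0.12 ± 0.12 (0.475), Hoxc9 by 0.11 ± 0.13 (0.542) and Hoxb13 by -0.10 ± 0.12 (0.531).

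**Figure D2:**
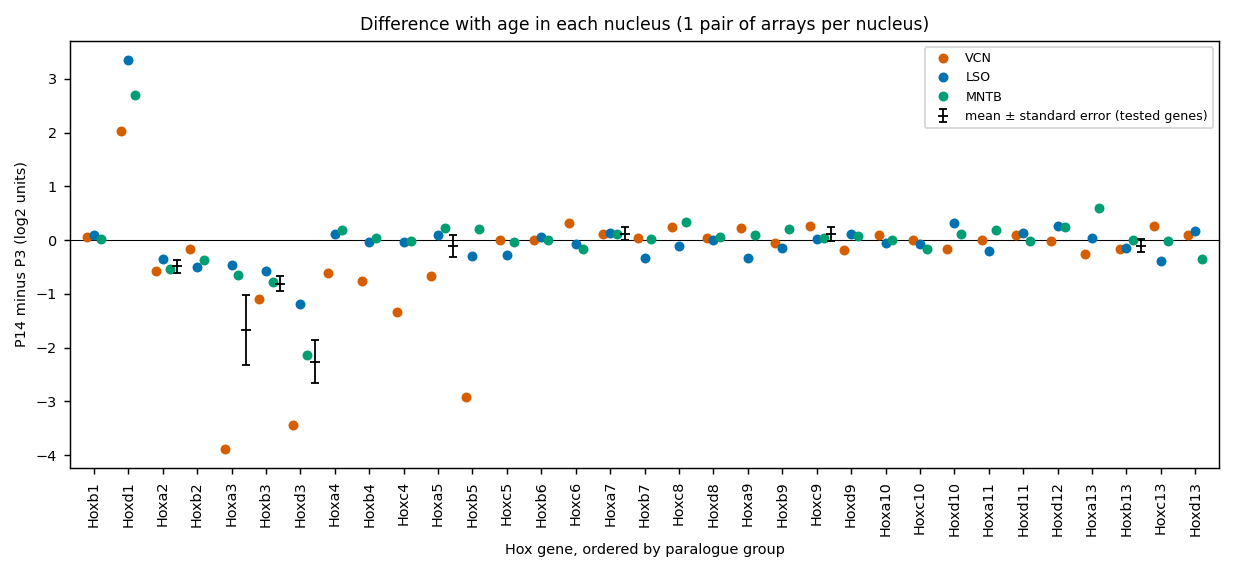
Difference P14 minus P3 (log2 units) of each Hox gene in each nucleus, with 1 point per nucleus; black bars are the mean and standard error of the 8 tested genes. Points below 0 cluster in groups 2 to 5, Hoxd1 stands alone above 2, and the largest differences below 0 are those of Hoxa3 (-3.88) and Hoxd3 (-3.44) in VCN.

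With no filter, 18193 genes were tested and 28.7% called. Hoxa2, Hoxb3 and Hoxd3 were again called, and Hoxd1 was called higher, with a fitted 2.69 ± 0.25 (limma adjusted p = 0.00167, 16.2% of all genes called higher). The fitted size of the Hoxd1 rise is no bound because its P3 values were background. Against the floor its rise was at least 0.45 in VCN, 1.70 in LSO and 1.39 in MNTB. Hoxb2 differed by -0.35 (adjusted p = 0.10), Hoxc4 by -0.46 (0.275) and Hoxb5 by -1.01 (0.263), none of which passed.

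Counted without a model, every P3 array was above every P14 array for 4 Hox genes, Hoxb2, Hoxa3, Hoxb3 and Hoxd3, which is 4 of 33 where 19.1% of all genes had this order. The reverse order held for Hoxd1 alone, where 23.7% of all genes had it. Without both VCN arrays the first count was 8, with Hoxa2, Hoxc6, Hoxc10 and Hoxc13 added, beside 28.4% of all genes. Hoxc10 and Hoxc13 were at or below control on all arrays. The median age difference was -0.35 in groups 1 to 5, 0.02 in groups 6 to 13 and 0.01 over all genes. In groups 1 to 5 the medians were -0.66 in VCN, -0.28 in LSO and -0.02 in MNTB.

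VCN had 5 Hox genes at 1 unit or more below P3 (Hoxa3, Hoxb3, Hoxd3, Hoxc4 and Hoxb5), where 4.35% of all genes were that much lower. LSO had Hoxd3 alone where 3.17% of genes were, and MNTB Hoxd3 alone where 4.06% were. At 1 unit or more above P3 there was Hoxd1 in each nucleus, where 6.94% of genes were in VCN, 5.38% in LSO and 5.34% in MNTB. As single pairs of arrays these differences have no replicate check. With values raised to the floor the VCN difference was -2.11 for Hoxb5 and -0.44 for Hoxc4, the rest lying within the control range.

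**Figure D3:**
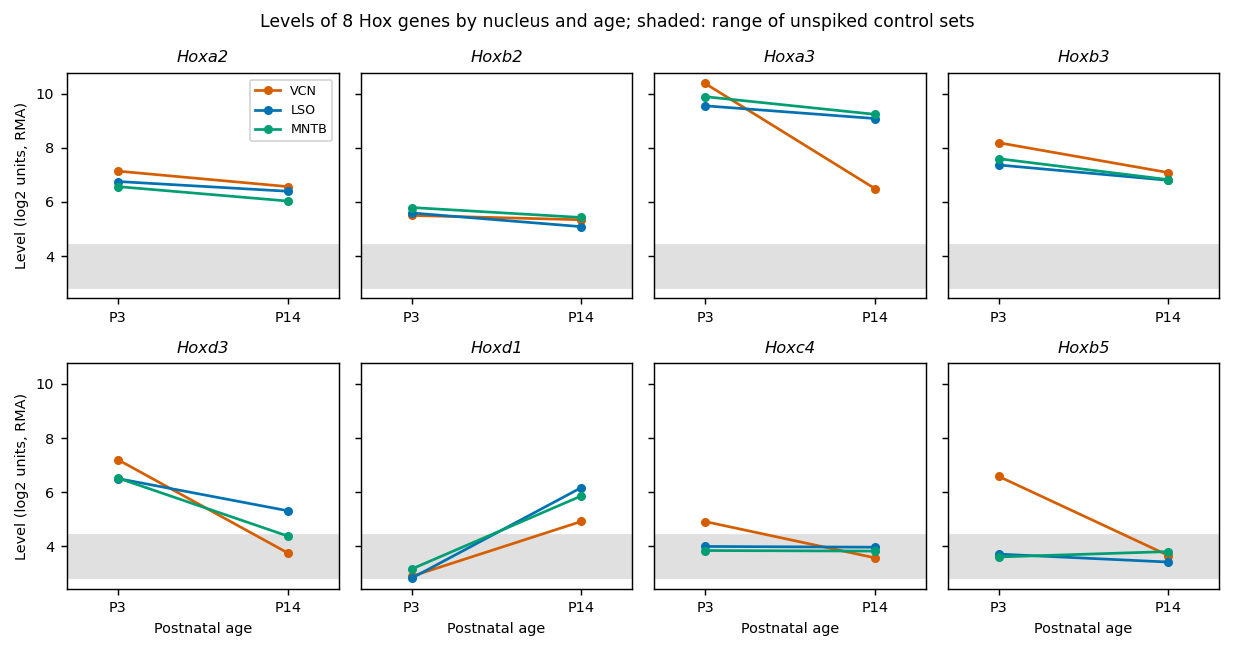
Level (log2 units) at P3 and P14 in each nucleus for 8 Hox genes of groups 1 to 5, with 1 array per point and the range of the unspiked control sets shaded. The 3 lines run nearly parallel for Hoxa2 and Hoxb3, the VCN line alone drops steeply for Hoxa3, Hoxc4 and Hoxb5, and all 3 lines of Hoxd1 leave the shaded band upward.

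The second comparison sets the nuclei against each other. None of the 8 tested Hox genes passed limma's test in any of the 3 contrasts, in which few genes were called at all: 0.161% for MNTB minus LSO, 0.638% for MNTB minus VCN and 0.369% for VCN minus LSO. At an unadjusted p under 0.05 there were 0, 1 and 1. The first of these was Hoxa2, with MNTB minus VCN at -0.55 ± 0.15 (limma adjusted p = 0.299) and VCN the higher by 0.57 at P3 and by 0.53 at P14, and the other Hoxb3, with VCN 0.55 ± 0.18 above LSO (adjusted p = 0.415). Hoxa3 had opposite differences at the 2 ages, which the additive fit cannot describe. With the VCN array of P3 left out, the fit was left with the low P14 value, and Hoxa3 was called, MNTB above VCN by 2.79 (adjusted p = 0.0024) and VCN minus LSO at -2.54 (adjusted p = 0.00296). A single VCN array therefore decided these calls.

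At P3 many Hox genes of low number had their highest value in VCN. Over all 6 arrays 11 of the 33 genes had their highest value on the VCN array of P3, 9 of them among the 13 of groups 1 to 5 and 2, Hoxd9 and Hoxb6, among the other 20, where 15.4% of all genes did. Hoxb6 was there by a tie of 5 arrays below the control range, and with ties left out the count was 10, beside 15% of all genes. At that age VCN was above LSO by 2.87 for Hoxb5, 0.92 for Hoxc4, 0.83 for Hoxa3, 0.82 for Hoxb3 and 0.70 for Hoxd3. Hoxb5 was the only Hox gene at least 1 unit above LSO, where 1.19% of all genes were, and Hoxb5 and Hoxc4 (1.07) were at least 1 unit above MNTB, where 1.57% were. Against the floor the Hoxb5 difference was at least 2.11 from either nucleus, and the Hoxc4 difference at least 0.44. No Hox gene was 1 unit lower in VCN than in LSO or MNTB at P3, where 1.45% and 0.956% of all genes were.

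At P14 VCN was still the highest nucleus for Hoxa2 and Hoxb3 but the lowest for several others. For 9 Hox genes the VCN array of P14 was the lowest of all, 6 of them in groups 1 to 5, where 18.1% of all genes had their lowest value there. For 6 genes, Hoxa3, Hoxd3, Hoxa4, Hoxb4, Hoxc4 and Hoxa5, the VCN array was the highest at P3 and the lowest at P14, as for 4.3% of all genes. These ranks lie partly at background, since Hoxa4 was at or below control on all arrays, Hoxc4 on all but VCN at P3, and Hoxd3 in VCN and MNTB at P14. With values raised to the floor and ties left out, 3 genes had this order, Hoxa3, Hoxb4 and Hoxa5, as did 3.55% of all genes. The second probe sets of Hoxb4 and Hoxa5 did not have it. For Hoxa3 VCN minus LSO was -2.59 and VCN minus MNTB -2.74. VCN minus LSO was -1.56 for Hoxd3, or -0.84 against the floor, and -1.25 for Hoxd1. At least 1 unit below LSO were these 3 Hox genes and 1.4% of all genes, and at least 1 unit below MNTB were Hoxa3 and 0.868% of all genes. None was 1 unit higher in VCN than in LSO or MNTB, where 1.4% and 1.91% of all genes were. MNTB and LSO differed by less than 1 unit for every Hox gene at both ages, the widest being Hoxd3 at P14 (-0.93). Of all genes 0.33% were at least 1 unit higher and 1.26% lower in MNTB than in LSO at P3, and 0.341% and 1.17% at P14.

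Several markers of other tissue or cell types also differed between the nuclei, and in VCN they did not share a common course with age. Otx2, a homeobox gene of forebrain, midbrain and choroid plexus, was at 9.34 in VCN at P3, at 6.52 in VCN at P14 and at 3.04 to 3.34 on the other 4 arrays. Of 9 forebrain and midbrain patterning genes 4 were at or below control on all arrays, and the summed level of the list was 9.76 on the VCN array of P3 and 7.9 to 8.35 on the others. Most of that sum in VCN at P3 was Otx2 itself (9.34). The choroid plexus gene Ttr, at 12.58 in VCN at P14, was at 6.61 to 6.93 elsewhere. Of the granule cell markers Zic1, Zic2 and Neurod1 were far higher in VCN than elsewhere at both ages, whereas Gabra6, a marker of mature granule cells, was at control in VCN at P3 (3.61). The summed level of 5 myelin genes was 12.58 in VCN at P3 against 9.86 in LSO and 10.53 in MNTB. The cholinergic and motor neuron list, with Chat at control on all arrays, was at 12.49 and 11.87 in LSO and at 7.09 to 8.43 elsewhere. The part of any of these in the Hox values was not tested.

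Several Hox genes have more than 1 probe set, and those of group 3 were set side by side. Hoxa3 has 4. The probe set used here, 1452421_at, differed by -3.88 in VCN, -0.47 in LSO and -0.65 in MNTB, and a second, 1427433_s_at, by -3.38, -0.14 and -0.69. It was at 8.15, 6.95 and 7.44 at P3 and at 4.77, 6.82 and 6.75 at P14, so the low VCN value of P14 was seen by both. The third, 1429398_at, differed by only -0.46, -0.23 and 0.04, and the fourth was within the control range on all arrays. The second probe set of Hoxb3, 1427605_at, was at 7.51, 6.45 and 7.19 at P3 and at 5.81, 5.91 and 5.79 at P14, again with no overlap of the ages. With the median of the probe sets of a gene, Hoxa3 differed by -0.81 (limma adjusted p = 0.103) and Hoxb3 by -1.01 (adjusted p = 0.00661). The size of the Hoxa3 difference thus depends on which of its probes are read.

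**Figure D4:**
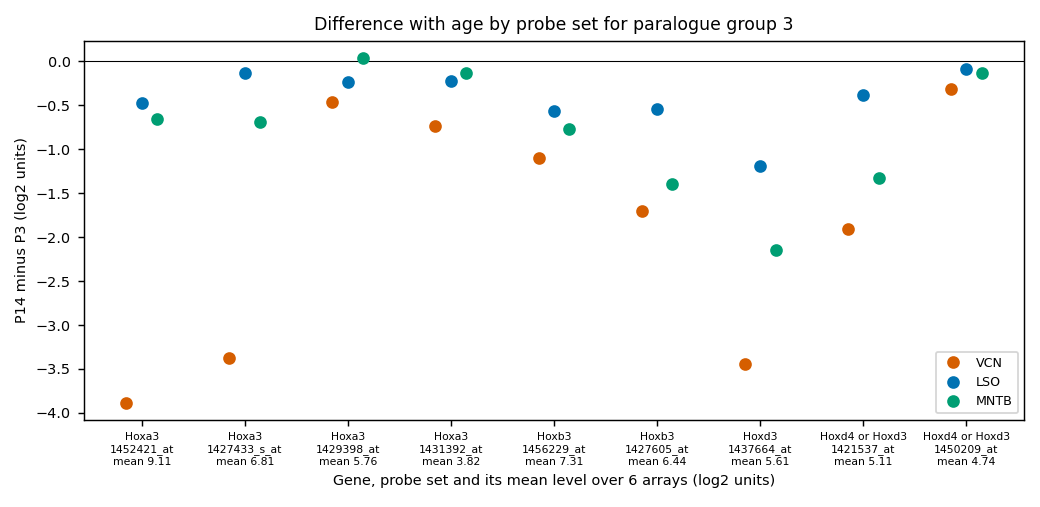
Difference P14 minus P3 (log2 units) in each nucleus for every probe set that names a group 3 gene, including 2 that name Hoxd4 or Hoxd3; the mean level of each is under its name. VCN is the lowest of the 3 points for all 9 probe sets, from -3.88 to -0.31.

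Most TALE partners of Hox proteins fell with age. Of 9 genes on the list 8 had a probe set, all were above control on all arrays and were tested, and 6 fell and 0 rose, where 17.7% of all tested genes fell. Their median difference was -0.66 against 0.03 over all tested genes. Meis2 was at 10.32, 10.98 and 11.05 in VCN, LSO and MNTB at P3 and at 9.57, 9.97 and 9.93 at P14. Every P3 array of Meis2 was above every P14 array, and it fell by 0.96 ± 0.10 (limma adjusted p = 0.0012). Meis1 fell by 0.88 ± 0.15 (adjusted p = 0.00674), Pbx3 by 0.84 ± 0.16 (0.00833), Pknox2 by 0.79 ± 0.12 (0.00468), Meis3 by 0.53 ± 0.11 (0.0125) and Pknox1 by 0.45 ± 0.14 (0.0472). Meis1 had the same order of nuclei as Hoxa2, at 7.66, 6.90 and 6.64 at P3 and at 6.46, 6.29 and 5.81 at P14, with VCN the highest and MNTB the lowest at each age. No other gene of the list had this order at both ages, and for Meis2 VCN was the lowest nucleus at each age. Pbx2, at 0.01 ± 0.12 (adjusted p = 0.943), and Pbx4, at -0.21 ± 0.12 (0.192), did not pass. With the P3 or the P14 array of MNTB left out 4 of the 8 fell, where 10.1% and 10.4% of all genes did. None of the 8 passed in a contrast of nuclei.

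Of the 18 genes of the retinoic acid list 16 were represented and 12 tested, and 2 rose and 3 fell, where 23.4% and 17.7% of all tested genes did. Aldh1a1, a retinaldehyde dehydrogenase, was at 6.82, 7.39 and 7.43 at P3 and at 10.98, 10.98 and 10.97 at P14, and rose by 3.76 ± 0.15 (limma adjusted p = 0.000224). Dhrs3, which turns retinaldehyde back to retinol, rose by 1.5 ± 0.38 (adjusted p = 0.0234). Crabp1, a cytoplasmic retinoic acid binding protein, was at 9.49, 9.61 and 9.71 at P3 and at 4.63, 7.08 and 7.23 at P14. As with Hoxa3, the VCN array of P14 was the lowest, and Crabp1 fell by 3.29 ± 0.47 (adjusted p = 0.00326). Cyp26b1, an enzyme that breaks retinoic acid down, fell by 1.03 ± 0.15 (adjusted p = 0.00365), and the receptor gene Rxrg, named after its value was seen, by 0.74 ± 0.22 (0.0412). The list's median difference was -0.19 among tested genes and 0.15 with no filter, and 5 genes fell with the P3 or the P14 array of VCN left out, where 16.5% and 16.7% of all genes did. Cyp26b1 was also the only gene of the list called between nuclei, 1.44 ± 0.18 higher in MNTB than in VCN (adjusted p = 0.0428).

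**Figure D5:**
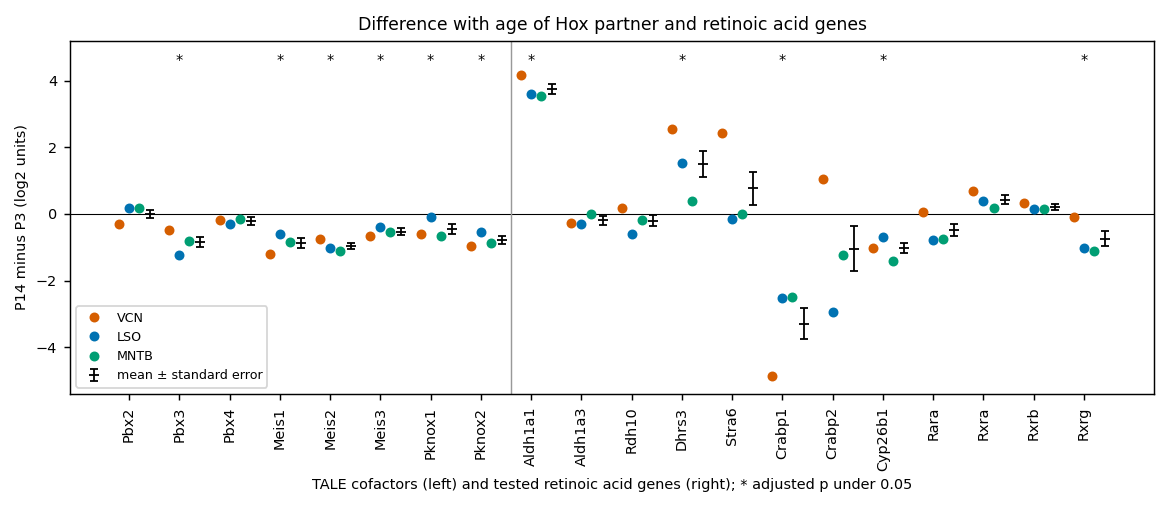
Difference P14 minus P3 (log2 units) of the 8 TALE partner genes (left) and the 12 tested retinoic acid genes (right), with 1 point per nucleus, the mean and standard error in black and a star where the limma adjusted p was under 0.05. Of the partner genes 6 lie below 0 with a star, and the retinoic acid genes run from -3.29 for Crabp1 to 3.76 for Aldh1a1.

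Of the early regulators of Hox clusters 7 of 9 genes were represented, and 1, Fgf3, was tested and not called (0.06 ± 0.12, limma adjusted p = 0.719). With no filter 0 of the 7 were called by age, where 28.7% of all genes were. Nearest in that fit were Egr2 (-1.09, limma adjusted p = 0.0748) and Gbx2 (-1.19, 0.0836). Egr2, the zinc finger gene of the third and the fifth rhombomere, had P3 values of 6.47 in VCN, 6.13 in LSO and 4.43 in MNTB, and was at 4.61, 4.68 and 4.47 at P14. Thus 2 of its 3 P3 arrays were high and the third was level with P14. Gbx2, a gene of the anterior hindbrain, was at 6.48 in VCN at P3 and at 3.42 to 4.61 elsewhere. Of the Cdx genes, which act on trunk Hox genes, Cdx1 and Cdx4 were at or below control on all arrays. Cdx2 was flat and above control on all arrays, at 5.32 to 5.47.

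Of 24 Polycomb and Trithorax genes 23 were represented, all above control on all arrays and tested, and 3 rose and 4 fell with age, where 23.4% and 17.7% of all genes did. Pcgf2, a core Polycomb subunit also known as Mel18, fell by 1.35 ± 0.10 (limma adjusted p = 0.000559) and Rnf2, the ubiquitin ligase of the same complex, by 0.77 ± 0.10 (0.00279). Kmt2a, the Trithorax methyltransferase that maintains Hox expression, fell by 0.68 ± 0.11 (0.0045), and Cbx6, a chromobox subunit, rose by 0.78 ± 0.11 (0.00288). Of 23 other transcripts within or beside the clusters 15 were represented and 8 tested, of which Hibadh (0.67 ± 0.10, adjusted p = 0.00352) and Lnpk (0.52 ± 0.12, 0.0163) rose and Cbx5 (-0.48 ± 0.08, 0.00499) and Skap2 (-0.29 ± 0.08, 0.0316) fell. Hibadh and Skap2 lie beyond the ends of cluster A, Lnpk beyond cluster D and Cbx5 beyond cluster C. Hoxd3os1, an antisense transcript of Hoxd3 named after its values were seen, was at 2.41 to 2.70, at or below control on every array.

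Markers of young neurons fell over the same interval. All 4 tested genes of the list of 6 immature neuron markers fell, where 17.7% of all tested genes did, Dcx by 2.42 ± 0.10 (limma adjusted p = 0.000266) and Sox11 by 2.17 ± 0.15 (0.00045), and the summed level of the list was 13.08 to 13.43 at P3 and 11.50 to 11.82 at P14. The summed level of the myelin list went from 9.86 to 12.58 at P3 to 14.67 to 14.87 at P14, and that of 4 meningeal genes from 7.14 to 7.37 to 9.74 to 10.15. Whether these marker changes reflect cell makeup or RNA per cell, and their part in the Hox differences, was not tested.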

How the data were processed

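Pooled tissue of each nucleus and age was hybridised to 1 Mouse 430 2.0 array after amplification from 20 ng of RNA, per the labels' protocols. The deposited values are log2 expression per probe set, made by the authors with RMA, per the submitters' processing notes. The RMA version and scan dates are not given in the sources used. The number of arrays, 6, limits the precision. Of 45101 probe sets 64 were controls, 34945 named 1 gene through the platform annotation, which can be old, 932 several and 9160 none. Each gene was read from its probe set of highest mean, and genes with a mean of at least 5.57, the 40th percentile of all probe sets, were tested. limma 3.58.1 (R 4.3.3) was fitted with age and nucleus as additive terms, an intensity trend, 2 residual and 4 prior degrees of freedom, with Benjamini-Hochberg adjustment over all tested genes and a threshold of 0.05. The steps were tested on simulated data. Control level was taken from the 3 unspiked trp sets, since the 24 sets for dap, lys, phe and thr lay at 6.13 to 12.06. Floored values were raised to the 25th percentile, 4.47. A list's summed level is the log2 of the sum of its genes' unlogged values. The alternatives were the filter, the choice of probe set, the scaling, a floor, the trend, the nucleus term, the control level and each array left out. Leaving out both VCN arrays and the rank counts without ties were chosen after seeing the data. Every Hox gene could be named, with any member of lists of up to 10 genes and up to 4 called members of longer ones. The Hox genes, the gene lists and the tests were chosen with earlier results of these data known, so no count here is independent of them.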

Additional observations from a re-analysis of the deposited data

Results flagged for a closer look

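An age difference of at least 0.5 in 1 nucleus with the opposite sign in another was seen for 5 Hox genes, each on 1 array per age and nucleus, and the difference between nuclei was not tested. In VCN P14 minus P3 was -0.61 for Hoxa4, -0.76 for Hoxb4, -0.66 for Hoxa5 and -2.92 for Hoxb5, while at least 1 other nucleus was above 0. In MNTB it was 0.61 for Hoxa13, with VCN below 0. All values of Hoxa4 were below the control level of 4.42. For Hoxb5 in MNTB (3.61 and 3.81) and Hoxa13 in VCN (4.30 and 4.05) both ages were below it too, so those opposite signs are differences at background, and for Hoxb4 the opposite sign was 0.05 in MNTB.

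Hoxd4 has no probe set of its own, and 2 probe sets that name Hoxd4 or Hoxd3 entered no comparison. Probe set 1421537_at reached 6.04 in VCN at P3, above the control level, with 5.29 in LSO and 5.80 in MNTB, and was at 4.13, 4.91 and 4.47 in the same order at P14, so that its P3 arrays were all above its P14 arrays, as for Hoxd3. Probe set 1450209_at reached 4.97 in VCN at P3 and was at 4.51 to 4.94 on the other arrays.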

How the results depend on the processing

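The age count of 3 Hox genes was 2 to 4 over the 15 alternatives, 4 with no filter and 2 to 3 with 1 array left out. Hoxb3 passed in 15 of 15 alternatives (adjusted p = 0.00607 to 0.0367) and Hoxd3 in 14 of the 14 that tested it (0.00327 to 0.0266), whereas Hoxa2 passed in 8 of 15 and Hoxa3 in 2. The Hoxd3 passes, apart from that with no filter, rest on a filter it met only through its P3 arrays. The Hox counts of MNTB minus VCN and of VCN minus LSO were 0 to 1 with 1 array left out, the 1 being Hoxa3 without the VCN array of P3, and that of MNTB minus LSO was 0 throughout. The 14 Hox genes above control on all arrays became 13 with the 25th percentile as the level and 12 with the median over probe sets. The trp sets alone are the control level used, so that alternative gave the same 14. Calls over all genes numbered 5351, and 3254 without the MNTB array of P3. Scaling moved the median age difference over all tested genes by at most 0.03. With quantile normalization 20.7% of tested genes were called higher and 20.2% lower, against 23.4% and 17.7% in the main fit. A filter at the median of all probe sets left Hoxd3, Hoxa5, Hoxa7, Hoxc9 and Hoxb13 untested. Hoxa5 was also untested with its _x_at probe set left out and with the median over probe sets. The nucleus term sets P14 against P3 within each nucleus, and with age alone 2 Hox genes passed. The labels give no replicate numbers to block on. The 6 genes highest in VCN at P3 and lowest there at P14 became 3 with values floored and ties left out. With no array repeated, the spread between animals is not measured, and low levels near background are bounded only by the control sets.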
